A study of Homo sapiens with 16 samples.

Results

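Expression of 9 enzymes that make serine, pass on its one-carbon unit, or draw on the same amino acid pool was followed over 6 times after induced silencing of EWS-FLI1. The enzymes were PHGDH, PSAT1, PSPH, SHMT1, SHMT2, MTHFD1, MTHFD2, CTH and ASNS. They were taken as every probe set that the platform annotation ties to exactly 1 gene symbol, that symbol being 1 of the 9, which gave 13 of 19070 such probe sets and 9 of 11963 genes. Of the 9 enzymes, 8 passed the filter on low values and are among the 7304 genes tested. SHMT1 did not pass it.

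The cells were Asp14, 1 clone of the A673 Ewing sarcoma line, driven by EWS-FLI1, the aberrant ETS transcription factor made when EWSR1 and FLI1 are joined. All samples carried a doxycycline-inducible hairpin against the fusion and the Tet repressor vector, and grew under Zeocin and Blasticidin in medium with glucose and pyruvate. RNA was taken at 0 h, when doxycycline was added (4 arrays), and 18 h (3 arrays), 36 h (3), 53 h (2), 72 h (2) and 96 h (2) after doxycycline at 1 ug/ml, and was hybridised to Affymetrix arrays. Since no untreated sample is later than 0 h, effects of doxycycline as a drug or of longer culture cannot be told apart from those of losing EWS-FLI1, and no label says that replicates were separate cultures, so the p-values reflect no more than the spread among these arrays, and that spread may be technical.

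Cells build serine from the glycolytic intermediate 3-phosphoglycerate through PHGDH, PSAT1 and PSPH. The serine hydroxymethyltransferases SHMT1 in the cytosol and SHMT2 in mitochondria split serine into glycine and a one-carbon unit held on folate, which MTHFD1 in the cytosol and MTHFD2 in mitochondria convert for use in purine and thymidylate synthesis. CTH releases cysteine, whose carbon skeleton comes from serine, from cystathionine, and ASNS makes asparagine from aspartate and glutamine. Many of these genes are known targets of ATF4, the transcription factor of the amino acid response, which binds composite C/EBP-ATF elements, and proliferating tumour cells are known to use the pathway heavily.

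Promoter windows from RefSeq (GRCh38.p14), 250 bases before to 50 bases after a start site, were held for 7 of the 9 enzymes, in 8 windows since ASNS had 2. PSPH and SHMT2 had no window in the table. The windows were searched on both strands for TGATGNAA, the core of the C/EBP-ATF element, for the E-box CACGTG, for a tandem ETS core GGAAGGAA, and for the E2F sequences TTTGGCGC and TTTCCCGC. Of 35116 windows of the same length, 3.62% held TGATGNAA, 7.26% CACGTG, 3.67% GGAAGGAA, 0.652% TTTGGCGC and 1.63% TTTCCCGC. The windows of ASNS, which was higher than at 0 h at 53 h, and of MTHFD1, which was lower, are shown, ASNS at chr7:97872359-97872658 on the minus strand and MTHFD1 at chr14:64388103-64388402 on the plus strand, 5′ to 3′, with the match in capitals.
ASNS: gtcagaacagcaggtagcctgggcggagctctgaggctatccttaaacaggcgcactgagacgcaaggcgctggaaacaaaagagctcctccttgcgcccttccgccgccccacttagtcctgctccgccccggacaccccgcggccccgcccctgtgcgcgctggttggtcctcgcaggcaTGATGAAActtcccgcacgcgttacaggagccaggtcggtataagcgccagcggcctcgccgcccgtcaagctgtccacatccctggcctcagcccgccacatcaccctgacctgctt
MTHFD1: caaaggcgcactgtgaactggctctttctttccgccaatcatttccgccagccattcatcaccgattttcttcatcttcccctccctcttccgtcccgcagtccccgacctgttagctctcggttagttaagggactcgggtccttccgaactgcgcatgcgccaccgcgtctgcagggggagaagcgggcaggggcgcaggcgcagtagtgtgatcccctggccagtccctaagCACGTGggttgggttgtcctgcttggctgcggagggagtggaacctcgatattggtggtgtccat
In the ASNS window TGATGAAA matched TGATGNAA, with its first base at -68 from the start site. In the MTHFD1 window CACGTG began at -15. The other ASNS window, at chr7:97872116-97872415, held GGAAGGAA at -113. TGATGNAA, CACGTG and GGAAGGAA each matched 1 of the 8 windows, and the E2F sequences matched 0 of the 8 windows. The windows of PHGDH, PSAT1, SHMT1, MTHFD2 and CTH thus held no match to any sequence searched. In the same build the ASNS gene spans chr7:97851677-97928441 and MTHFD1 chr14:64388353-64460025. These are matches of letters and were not tested as binding sites.

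The hairpin target was low in every treated sample. FLI1 read 9.99 to 10.17 on the log2 scale on the 4 arrays at 0 h and 6.34 to 7.17 on the 12 arrays after doxycycline. All 5 Ewing sarcoma markers on the array passed the filter, and none of the 4 blood, 4 epithelial and 4 endothelial markers on it did, with mean levels of 2.13 to 2.59. The upper quartile of log2 values lay between 8.08 and 8.18 per array. RNA quality, read as the ACTB signal at the 3' end less that at the 5' end, lay between 1.47 and 2.45 and reached 2.09 to 2.45 at 36 h.

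The arrays at 36 h did not show 1 state for these enzymes. In replicate 1, 7 of the 8 tested enzymes read more than 1 log2 unit below the mean of the other 2 arrays, which held for 223 of 7304 genes (3.05%). At 18 h no array had an enzyme that far below the other 2. The gap was 3.04 for ASNS, 3.01 for PSAT1, 2.32 for MTHFD2, 1.85 for SHMT2, 1.66 for PHGDH, 1.57 for PSPH and 1.25 for CTH. MTHFD1 was the exception, with replicate 1 higher by 0.34. In replicate 1, 7 enzymes lay below all 4 arrays at 0 h, and CTH lay above them. In replicates 2 and 3, 7 lay above them and MTHFD1 below. FLI1 read 6.34 in replicate 1 and 6.48 and 6.41 in the others, and the ACTB measure 2.21 against 2.45 and 2.09. What else set replicate 1 apart was not tested, and each result that rests on 36 h is therefore given with and without it.

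Replicates 2 and 3 were unusually alike. The SD over genes of their difference was 0.18 at 0 h, 0.16 at 18 h and 0.19 at 36 h, against 0.37 to 0.53 for other pairs of arrays at these times. They may be 1 RNA, which the labels do not say, so 36 h without replicate 1 may rest on 1 sample.

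**Figure D1:**
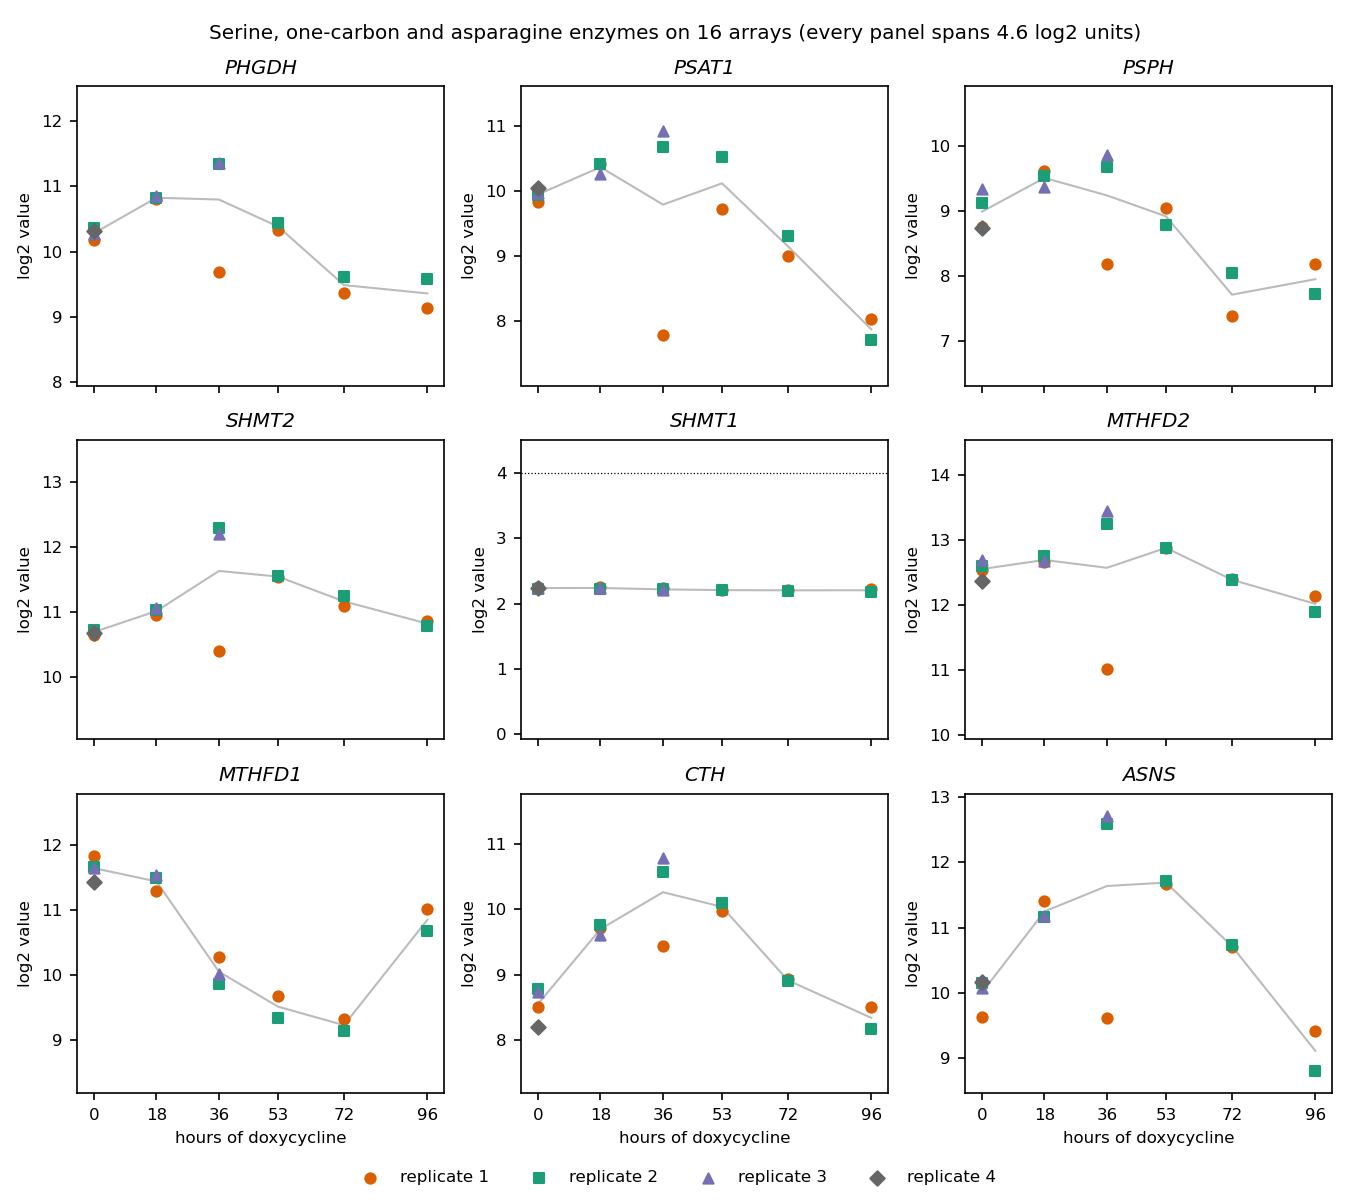
Log2 value (vertical axis) of the 9 enzymes on each of 16 arrays by hours of doxycycline (horizontal axis), 1 symbol per array, with a line through the group means. Replicate 1 at 36 h lies far below the other arrays at 36 h for 7 enzymes, MTHFD1 reaches its lowest values at 72 h, and SHMT1 stays below the dotted filter line at 4.

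Over all 16 arrays, CTH was the only 1 of 8 that rose at 18 h against 0 h and none fell (0 also at an unadjusted p under 0.05), where limma called 14.8% of all genes higher and 14.7% lower at an adjusted p of 0.05. At 36 h CTH, ASNS and SHMT2 rose (3 of 8, background 33.2%) and MTHFD1 fell (1 of 8, background 32.1%). At 53 h CTH and ASNS rose (background 31.8%) and MTHFD1 fell (background 34.5%). At 72 h none rose (0 also at an unadjusted p under 0.05, background 29.3%), and PSPH and MTHFD1 fell (background 39.2%). At 96 h none rose (0 also at an unadjusted p under 0.05, background 25.1%), and PHGDH, PSAT1, PSPH and MTHFD1 fell (4 of 8, background 35.7%). With only 8 enzymes, no share is read here as apart from its background. The moderated F test over the time course passed for 6 of 8 enzymes, all but SHMT2 (limma adjusted p = 0.109) and MTHFD2 (0.687), and for 84.0% of all genes. The median change of the 8 enzymes was 0.47, 0.38, 0.25, -0.48 and -0.84 at the successive times, where the median of all genes was 0.02, 0.02, -0.01, -0.11 and -0.10.

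The position of single arrays against those of 0 h was also counted. At 18 h all 3 arrays lay above all 4 at 0 h for 6 of 8 enzymes (PHGDH, PSAT1, PSPH, SHMT2, CTH and ASNS), which held for 20.5% of all genes. At 36 h 1 of 8 lay wholly above (32.7% of all genes) and 1 below (33.1%), at 53 h 4 above (36.4%) and 1 below (39.2%), and at 72 h 3 above (34.1%) and 4 below (44.9%). At 96 h both arrays lay below all of 0 h for 6 of 8 (PHGDH, PSAT1, PSPH, MTHFD1, MTHFD2 and ASNS), against 40.3% of all genes, and 1 of 8 above (28.2%). Between 53 h and 72 h both later arrays lay below both earlier ones for 8 of 8, against 39.8% of all genes. Apart from the 36 h counts, these comparisons use no array of 36 h.

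Replicate 1 of 36 h was singled out from the values of these same enzymes, after they were seen. A smaller spread and more calls without it follow from that choice and lend no separate support. Without replicate 1 of 36 h, 7289 genes were tested, the estimated spread of most of these enzymes shrank, and more of them passed, also at times that the array does not enter. The rise at 18 h then held for 5 of 8 (ASNS, CTH, PHGDH, PSPH and SHMT2, background 17.3%). At 36 h 7 rose (background 33.0%) and MTHFD1 fell (background 31.4%). At 53 h ASNS, CTH, SHMT2 and MTHFD2 rose (background 33.1%) and MTHFD1 fell (background 35.6%). At 72 h ASNS, SHMT2 and CTH were still higher than at 0 h (3 of 8, background 30.4%), while PHGDH, PSAT1, PSPH and MTHFD1 were lower (4 of 8, background 40.2%). At 96 h 6 of 8 were lower, all but SHMT2 and CTH (background 36.9%). With replicates 2 and 3 also averaged, an alternative chosen after the data were seen, 4 rose at 18 h (PHGDH, SHMT2, CTH and ASNS, background 8.70%) and 7 at 36 h (background 24.6%).

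**Figure D2:**
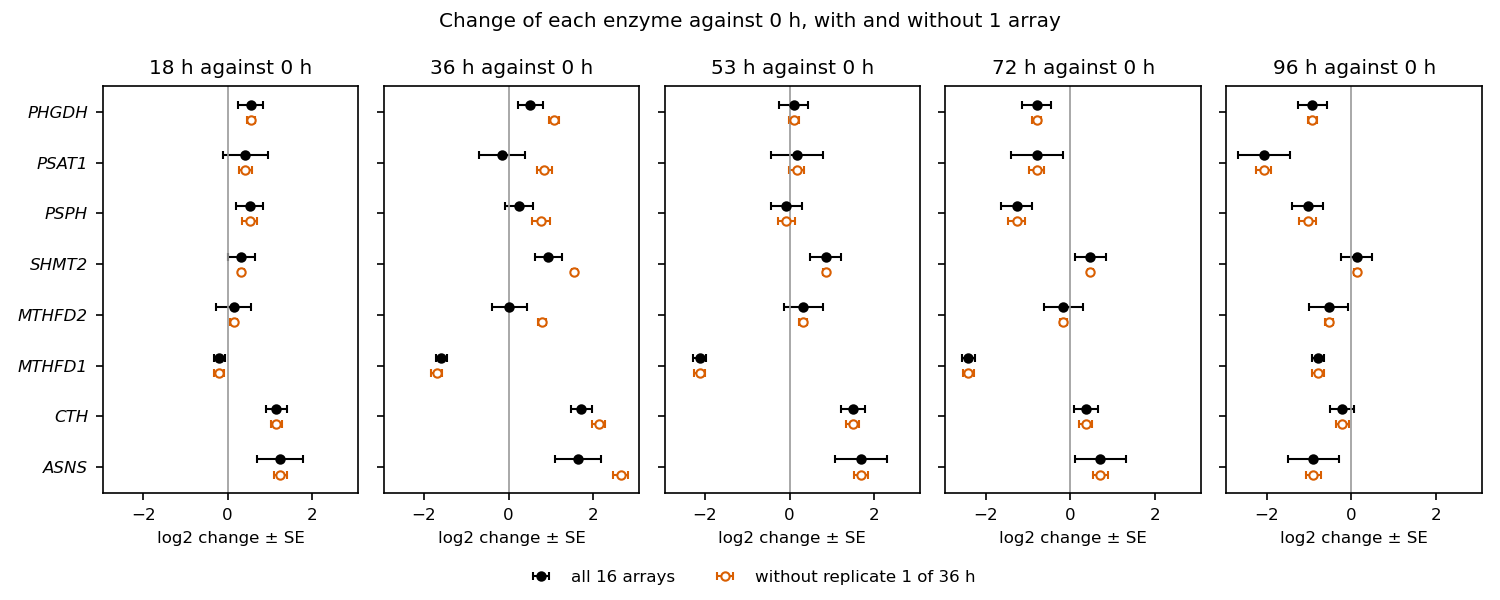
Log2 change against 0 h with its standard error (horizontal axis) for the 8 tested enzymes (rows) in 5 panels by time, with all 16 arrays (filled) and without replicate 1 of 36 h (open). Leaving out the array moves the change only at 36 h and narrows most of the error bars at every time, while MTHFD1 only moves from -1.59 to -1.70 at 36 h.

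The 3 enzymes of serine synthesis ended the course lower than they began. PHGDH, the first and committed step, read 10.17, 10.37, 10.27 and 10.32 at 0 h and 10.81, 10.82 and 10.85 at 18 h. It read 9.69, 11.35 and 11.35 at 36 h, 10.32 and 10.44 at 53 h, 9.36 and 9.61 at 72 h, and 9.13 and 9.58 at 96 h. All 18 h arrays were above and all 72 h and 96 h arrays below those of 0 h. The 18 h level differed from that of 0 h by a log2 change of 0.55 ± 0.30 (SE, limma adjusted p = 0.192) and the 72 h level by -0.80 ± 0.34 (0.0516), neither called, and PHGDH fell by 0.92 ± 0.34 at 96 h (0.0307), or 1.90-fold. The 96 h call was lost with the replicate number as a block (limma adjusted p = 0.0537), without replicate 2 of 0 h (0.0563), replicate 4 of 0 h (0.0513) or replicate 1 of 96 h (0.212), and with replicates 2 and 3 averaged (0.0523). Without replicate 1 of 36 h PHGDH was 0.55 ± 0.10 higher at 18 h (limma adjusted p = 0.00135), 1.07 ± 0.11 higher at 36 h (3.29e-06) and 0.80 ± 0.11 lower than at 0 h at 72 h (change -0.80, 2.82e-05).

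PSAT1, the aminotransferase of the second step, had the largest fall of the 8 at 96 h. It read 9.84, 9.94, 9.97 and 10.05 at 0 h, 10.42, 10.41 and 10.27 at 18 h and 7.79, 10.68 and 10.92 at 36 h. It then read 9.72 and 10.52 at 53 h, 9.0 and 9.31 at 72 h, and 8.04 and 7.71 at 96 h. The 96 h arrays lay about as low as replicate 1 of 36 h and far below 0 h. PSAT1 fell by 2.07 ± 0.61 at 96 h (limma adjusted p = 0.00948), or 4.21-fold, a call lost without replicate 2 of 96 h (0.0712). At 36 h the change turned with 1 array: it was -0.16 ± 0.54 over all arrays (limma adjusted p = 0.815) and 0.85 ± 0.18 without replicate 1 (0.00111).

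PSPH, the phosphatase of the last step, has 2 probe sets, and RefSeq lists a pseudogene, PSPHP1, whose transcripts could not be told apart here. The brighter read 8.76, 9.13, 9.34 and 8.74 at 0 h, 9.62, 9.55 and 9.36 at 18 h, and 8.19, 9.67 and 9.86 at 36 h. It read 9.05 and 8.79 at 53 h, 7.39 and 8.05 at 72 h, and 8.19 and 7.72 at 96 h, so that 72 h and 96 h lay below all of 0 h. PSPH fell by 1.27 ± 0.37 at 72 h (limma adjusted p = 0.00714) and by 1.04 ± 0.37 at 96 h (0.0254), 2.42-fold and 2.05-fold. The dimmer probe set fell by 1.13 ± 0.43 (limma adjusted p over probe sets 0.032) and 1.05 ± 0.43 (0.0499). The 72 h call was lost without replicate 1 of 72 h (limma adjusted p = 0.105). The 96 h call was lost without replicate 2 or 3 of 0 h or replicate 2 of 96 h (the last 0.188), and with replicates 2 and 3 averaged (0.0583).

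SHMT2, the mitochondrial hydroxymethyltransferase, was above its 0 h level on all treated arrays but replicate 1 of 36 h through its brightest probe set, though not through all 3 probe sets. Its brightest probe set read 10.64, 10.72, 10.72 and 10.68 at 0 h, a narrow range, and 10.95, 11.03 and 11.06 at 18 h. It read 10.40, 12.29 and 12.20 at 36 h, 11.54 and 11.55 at 53 h, 11.09 and 11.24 at 72 h, and 10.86 and 10.78 at 96 h. SHMT2 rose by 0.94 ± 0.32 at 36 h (limma adjusted p = 0.0196), or 1.92-fold, and was 0.85 ± 0.36 higher at 53 h (0.0528, and 0.0499 with the replicate number as a block). The 36 h call was lost without replicate 2 (limma adjusted p = 0.12) or 3 (0.111) of 36 h and with those 2 averaged (0.176). Without replicate 1 the 36 h rise was 1.55 ± 0.06 (limma adjusted p = 4.07e-09), and SHMT2 also rose at 18 h by 0.32 ± 0.06 (0.00112), at 53 h by 0.85 ± 0.06 (1.28e-07) and at 72 h by 0.47 ± 0.06 (2.17e-05). The other 2 probe sets changed by 0.94 and 0.90 at 36 h over all arrays, the former past the threshold (limma adjusted p over probe sets 0.0357) and the latter not (0.0945). At 72 h the former changed by 0.52 ± 0.41 and the latter by -0.02 ± 0.51. At 96 h they changed by 0.09 ± 0.41 and -0.08 ± 0.51. The arrays of the latter overlapped those of 0 h at 18 h, 72 h and 96 h.

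SHMT1, the cytosolic form, read 2.18 to 2.25 on all 16 arrays through its 1 probe set, a level like that of the markers of absent cell types, and was not tested. Its low reading was not taken as the level of the gene, since another probe set for it, shared with a second annotated symbol and so outside the rule, read higher. The planned comparison of SHMT2 with SHMT1 was therefore not run.

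MTHFD1, the cytosolic folate enzyme that feeds purine and thymidylate synthesis, had the smallest p of the 8 over the time course (limma adjusted p of the F test 1.41e-08). It read 11.84, 11.66, 11.66 and 11.43 at 0 h, 11.29, 11.50 and 11.55 at 18 h and 10.28, 9.87 and 10.02 at 36 h. It read 9.69 and 9.35 at 53 h, 9.33 and 9.14 at 72 h, and 11.02 and 10.69 at 96 h. All 9 arrays from 36 h on lay below those of 0 h, and at 96 h both lay above all of those from 36 h to 72 h. By 36 h MTHFD1 fell by 1.59 ± 0.13 (limma adjusted p = 2.12e-07), by 53 h it fell by 2.13 ± 0.15 (4.13e-08), and by 72 h it fell by 2.41 ± 0.15 (7.85e-09). The 96 h level was still 0.79 ± 0.15 under that of 0 h (change -0.79, 0.000413). These are 3.01-fold, 4.37-fold, 5.32-fold and 1.73-fold lower levels. At 18 h the change was -0.20 ± 0.13 (limma adjusted p = 0.266). The 4 calls against 0 h were kept in each of the 16 fits that left out 1 array, at changes of -1.70 to -1.50, -2.29 to -1.96, -2.50 to -2.32 and -0.96 to -0.63.

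Between successive times MTHFD1 was the 1 of 8 enzymes called lower from 18 h to 36 h (by 1.39 ± 0.14, limma adjusted p = 5.98e-06, background 22.9%). It was also the 1 of 8 called lower from 36 h to 53 h (by 0.54 ± 0.16, limma adjusted p = 0.0384, background 7.23%). The latter call was lost in 6 of the 16 fits that left out 1 array, with no low-value filter (limma adjusted p = 0.0678), without the trend (0.0504) and with replicates 2 and 3 averaged (0.0996). From 72 h to 96 h it was the 1 of 8 that rose, by 1.62 ± 0.17 (limma adjusted p = 1.44e-05), or 3.07-fold, where 17.1% of all genes rose.

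MTHFD2, its mitochondrial counterpart, read 12.55, 12.61, 12.70 and 12.37 at 0 h, 12.66, 12.75 and 12.68 at 18 h, and 11.03, 13.24 and 13.45 at 36 h. It read 12.88 and 12.88 at 53 h, 12.40 and 12.38 at 72 h, and 12.14 and 11.90 at 96 h. No comparison passed the threshold over all arrays, and the changes against 0 h ran from -0.54 ± 0.46 at 96 h (limma adjusted p = 0.334) to 0.33 ± 0.46 at 53 h (0.547). The 95% interval at 36 h, from -0.85 to 0.89, is wide because of replicate 1. Without that array MTHFD2 was 0.79 ± 0.09 higher at 36 h (limma adjusted p = 7.51e-06), 0.33 ± 0.09 higher at 53 h (0.00649), and changed by -0.54 ± 0.09 at 96 h (0.000223).

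The mitochondrial and cytosolic folate enzymes were set against each other within each array, as the log2 value of MTHFD2 less that of MTHFD1. Only the change of this difference has a meaning, since the probe sets bind differently. The 4 arrays at 0 h gave 0.71, 0.94, 1.04 and 0.94, and those at 18 h gave 1.37, 1.25 and 1.13. The difference was 0.75, 3.37 and 3.43 at 36 h, 3.19 and 3.53 at 53 h, 3.07 and 3.24 at 72 h, and 1.12 and 1.21 at 96 h. Apart from replicate 1 of 36 h, each treated array lay above all of 0 h. Against a mean of 0.91 ± 0.14 at 0 h (SD, n = 4), the difference was 2.45 higher at 53 h and 2.25 higher at 72 h (two-sided exact permutation p = 0.0667 for each, the smallest that 4 against 2 arrays allow). It was 0.34 higher at 18 h (exact permutation p = 0.0286, the smallest for 4 against 3), 1.61 higher at 36 h (exact p = 0.114) and 0.26 higher at 96 h (exact p = 0.133). At 53 h and 72 h most of it was the fall of MTHFD1, which changed by -2.13 and -2.41. MTHFD2 changed by 0.33 and -0.16 at these times, not called over all arrays. After adjustment over the 5 tests no exact p was below 0.111, and with these numbers of arrays no adjusted p could have gone below 0.0667 at any time.

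**Figure D3:**
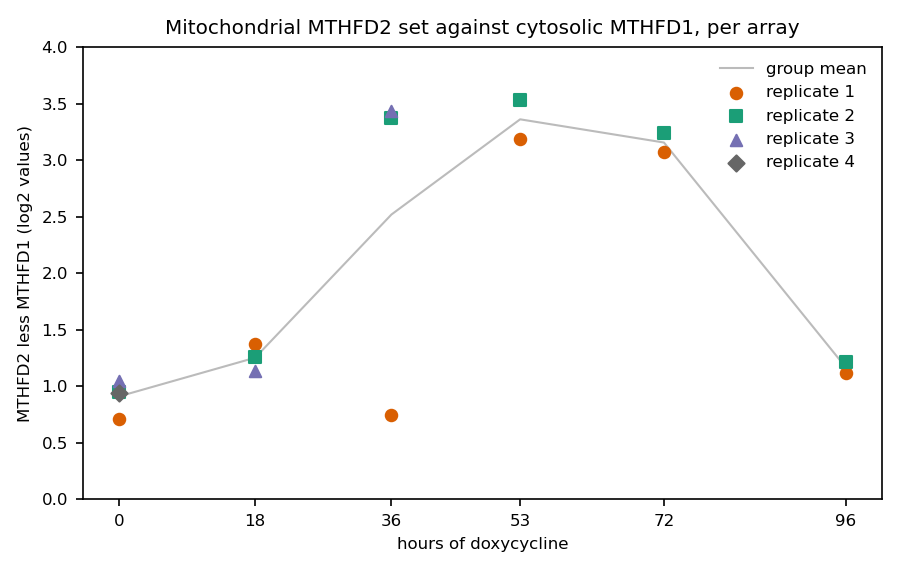
Log2 value of MTHFD2 less that of MTHFD1 on each array (vertical axis) by hours of doxycycline (horizontal axis), with a line through the group means. Values at 0 h lie between 0.71 and 1.04, those at 53 h and 72 h between 3.07 and 3.53, and replicate 1 at 36 h lies at 0.75.

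CTH, which releases cysteine from cystathionine, rose early in both of its probe sets and on each array at 18 h, 36 h and 53 h. The brighter read 8.49, 8.78, 8.73 and 8.19 at 0 h, 9.71, 9.77 and 9.61 at 18 h, and 9.43, 10.57 and 10.79 at 36 h. It read 9.98 and 10.10 at 53 h, 8.92 and 8.90 at 72 h, and 8.50 and 8.17 at 96 h. All arrays of 18 h to 72 h, replicate 1 of 36 h included, lay above those of 0 h, and those of 96 h did not. CTH rose by 1.15 ± 0.25 at 18 h (limma adjusted p = 0.00424), 1.72 ± 0.25 at 36 h (3.96e-05) and 1.49 ± 0.28 at 53 h (0.000387), or 2.22-fold, 3.29-fold and 2.81-fold. These 3 calls were kept in each of the 16 fits that left out 1 array. The other probe set rose by 1.46 ± 0.32, 2.07 ± 0.32 and 1.81 ± 0.37.

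From 53 h to 72 h CTH was the 1 of 8 enzymes called lower, by 1.13 ± 0.33 (limma adjusted p = 0.0324), where 11.0% of all genes fell. The step was not particular to CTH. PSPH changed by -1.20, ASNS by -0.98, PSAT1 by -0.97 and PHGDH by -0.90 without a call. Both 72 h arrays lay below both 53 h arrays for all 8 enzymes, as for 39.8% of all genes. The CTH call was lost without any 1 of its 4 arrays, with no low-value filter (limma adjusted p = 0.0597) and with replicates 2 and 3 averaged (0.0506). At 72 h and 96 h CTH differed from 0 h by 0.36 ± 0.28 (limma adjusted p = 0.269) and -0.21 ± 0.28 (0.543), with 95% intervals of -0.25 to 0.97 and -0.82 to 0.40.

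ASNS, the asparagine synthetase, spanned the widest range of the 8. It read 9.63, 10.15, 10.07 and 10.16 at 0 h, 11.41, 11.16 and 11.17 at 18 h, and 9.61, 12.59 and 12.71 at 36 h. It read 11.67 and 11.71 at 53 h, 10.70 and 10.73 at 72 h, and 9.41 and 8.80 at 96 h. The arrays of 18 h, 53 h and 72 h lay above and those of 96 h below all of 0 h. ASNS rose by 1.64 ± 0.54 at 36 h (limma adjusted p = 0.0163) and 1.69 ± 0.61 at 53 h (0.0259), or 3.11-fold and 3.22-fold, and was 1.24 ± 0.54 higher at 18 h, which missed the threshold (0.0992). The 36 h call was lost without replicate 2 (limma adjusted p = 0.0944) or 3 (0.0996) of 36 h and with those 2 averaged (0.147). The 53 h call was lost without replicate 1 of 0 h (0.0525) or either array of 53 h (0.096 and 0.105). Without replicate 1 of 36 h the rise was 1.24 ± 0.15 at 18 h (limma adjusted p = 8.62e-05), 2.65 ± 0.17 at 36 h (5.69e-08), 1.69 ± 0.17 at 53 h (1.59e-06) and 0.71 ± 0.17 at 72 h (0.00204), followed by a change of -0.90 ± 0.17 at 96 h (0.000468).

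Without that array the step from 18 h to 36 h was a rise for ASNS, SHMT2, CTH, MTHFD2 and PHGDH (5 of 8, background 22.1%). With replicates 2 and 3 also averaged, since they may be 1 RNA, the PHGDH call was lost (change 0.53 ± 0.18, limma adjusted p = 0.0715) and 4 of 8 remained (background 9.79%). The step from 36 h to 53 h was a fall for 7 of 8 without replicate 1, all but MTHFD1 (background 9.58%). With replicates 2 and 3 also averaged it was a fall for 2 of 8, PHGDH and SHMT2 (background 1.80%), and the calls of ASNS (limma adjusted p = 0.0857), CTH (0.156), PSAT1 (0.26), PSPH (0.189) and MTHFD2 (0.0803) were lost. The step from 53 h to 72 h was a fall for 7 of 8 without replicate 1, all but MTHFD1 (background 13.3%), and also for 7 with the averaging (background 8.03%). From 72 h to 96 h ASNS, CTH, MTHFD2, PSAT1 and SHMT2 fell (5 of 8, background 11.9%, and 5 of 8 with the averaging, background 8.54%), the largest being ASNS (change -1.61 ± 0.19, limma adjusted p = 5.4e-05) and PSAT1 (-1.28 ± 0.21, 0.000555), while MTHFD1 rose. The steps after 53 h use no array of 36 h other than through the shared estimate of the spread.

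Most but not all tested genes of the amino acid response were, like 7 enzymes, lower in replicate 1 of 36 h. Of 17 genes listed, 15 were on the array and tested, and of these 4 rose at 18 h (background 14.8%). The rise held for 11 of 15 at 36 h (background 33.2%), and again for 11 by 53 h (31.8%), then for 6 by 72 h (29.3%) and for 4 by the end (25.1%). By limma 0 fell before 96 h (0 also at an unadjusted p under 0.05) and 2 at 96 h (background 35.7%). CHAC1, STC2 and VLDLR read below the filter value of 4 on all 4 arrays at 0 h, and NUPR1 on 3 of them, so that they passed the filter only through later times, when they had to be higher. STC2 is named for this after its values were seen. Their median change was 0.58, 1.16, 1.76, 0.62 and -0.14. ATF4 itself rose by 0.86 ± 0.24 at 36 h (limma adjusted p = 0.00612) and 1.06 ± 0.27 at 53 h (0.00373). The ATF4 targets CHAC1, which degrades glutathione, and TRIB3, a pseudokinase, rose by 3.30 ± 0.60 and 2.94 ± 0.80 at 53 h, the former from dim readings of 2.69 to 2.92. DDIT3, which encodes CHOP, rose by 2.09 ± 0.58 at 36 h and 1.87 ± 0.66 at 53 h. Without replicate 1 of 36 h, the 36 h changes were 1.31 for ATF4 and 3.19 for DDIT3. By the smallest p over the time course, NUPR1 rose by 6.66 ± 0.80 at 72 h, VLDLR by 4.94 ± 0.38 and DDIT4, an mTORC1 inhibitor, by 4.71 ± 0.52 at 36 h, and ATF3 by 2.76 ± 0.23 at 53 h. Some of these genes belong to other pathways too, such as the lipoprotein receptor VLDLR.

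At 36 h replicate 1 was lower than the mean of the other 2 arrays for 13 of these 15 genes, and by over 1 for 11, with a median gap of 1.88. The gap was 3.84 for TRIB3, 3.42 for NUPR1, 3.31 for DDIT3, 2.79 for CHAC1 and 1.33 for ATF4. For the genes without such a gap it was 0.42 for EIF2AK1, 0.37 for ATF3, -0.07 for VLDLR and -0.14 for EIF2AK2. Less the mean of 0 h, replicate 1 read 4.99 for VLDLR, 3.41 for DDIT4, 2.84 for NUPR1 and 0.84 for ATF3. On the same measure it read -0.03 for ATF4, -0.11 for DDIT3 and -1.89 for CEBPG. By contrast it exceeded 1 for 0 of 5 proliferation markers (median 0.17) and 1 of 9 other folate enzymes (median 0.18), and the median over all genes was -0.01. The gap was not particular to the enzymes and response genes. Replicate 1 read 5.96 for the carrier SLC1A4 (others 9.55 and 9.56), 7.74 for SLC7A5 (10.75 and 10.73) and 7.74 for CBS (9.43 and 9.46). It lay close to the others for SLC38A2 (13.05 against 13.20 and 13.16) and MAT2A (9.59 against 9.56 and 9.53). Without replicate 1, 8 of the 15 response genes rose and 1 fell at 18 h (background 17.3% and 16.2%), 14 and 0 at 36 h (33.0% and 31.4%), 11 and 0 at 53 h (33.1% and 35.6%), 9 and 1 at 72 h (30.4% and 40.2%), and 4 and 5 at 96 h (26.5% and 36.9%). The 15 include CHAC1, STC2, VLDLR and NUPR1, which passed the filter only through later times, so the counts that rose are not free of the filter. Whether ATF4 set the levels of the enzymes was not tested.

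**Figure D4:**
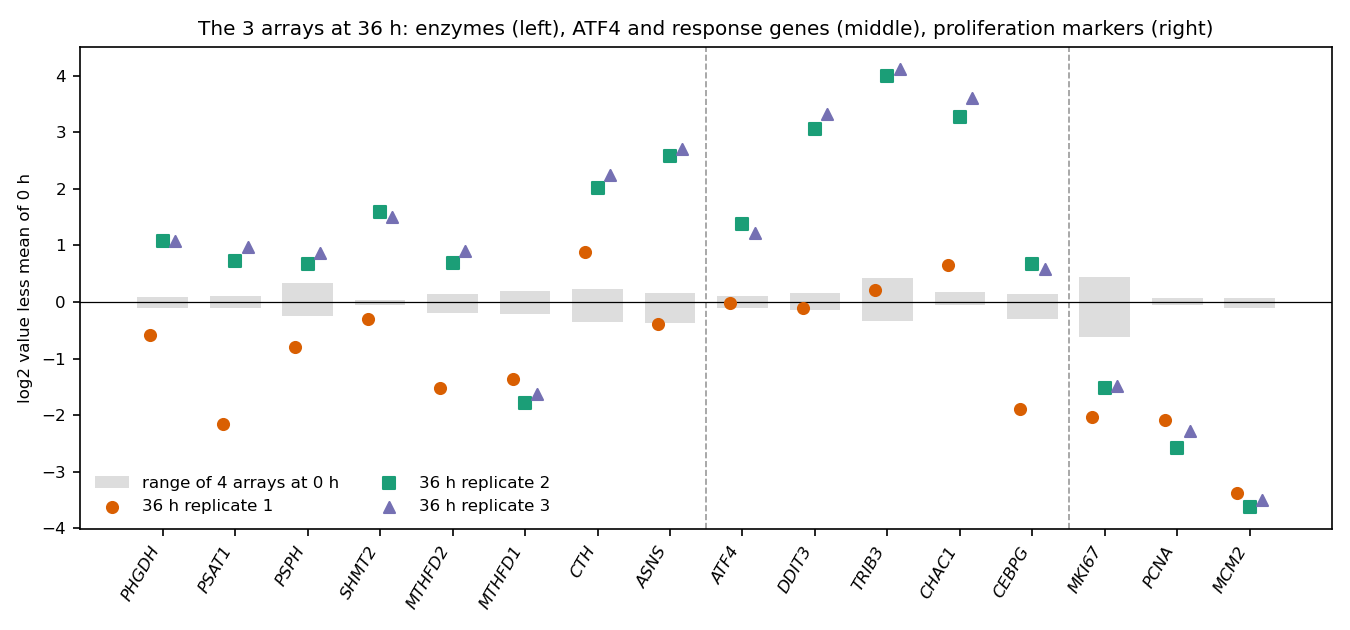
Log2 value less the mean of 0 h (vertical axis) for each of the 3 arrays at 36 h, for the 8 tested enzymes, 5 amino acid response genes and 3 proliferation markers (horizontal axis), with grey bars for the range of the 4 arrays at 0 h. Replicate 1 lies near or below 0 for ASNS, DDIT3 and TRIB3, where the other 2 arrays lie above 2, while all 3 arrays are low for MTHFD1, MKI67, PCNA and MCM2. The 5 response genes drawn are all among the 11 of 15 for which replicate 1 was lower by over 1.

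Most of the other genes of folate metabolism that were tested also read lower from 36 h on. Of 19 listed, 14 were on the array and 9 were tested, and none rose at any time against 0 h by limma (0 also at an unadjusted p under 0.05). The count that fell was 5 of 9 at 18 h (background 14.7%), when MTHFD1 was not called, 9 of 9 at 36 h (32.1%), 8 of 9 at both 53 h (34.5%) and 72 h (39.2%), and 7 of 9 at 96 h (35.7%). SLC25A32, the mitochondrial folate carrier, was lower at 18 h and 36 h and was not called later, with a change of 0.08 ± 0.21 at 72 h (limma adjusted p = 0.732), and is named after its values were seen. The median changes were -0.34, -1.09, -1.27, -1.49 and -0.78. Thymidylate synthase, TYMS, fell by 2.91 ± 0.10 at 72 h (limma adjusted p = 7.1e-11) and the folate carrier SLC19A1 by 2.48 ± 0.21 (2.03e-07). ATIC, of the last steps of purine synthesis, fell by 1.49 ± 0.10 and the folate hydrolase GGH by 1.53 ± 0.13. From 72 h to 96 h 4 of the 9 rose (background 17.1%), among them TYMS by 2.08 ± 0.12 and SLC19A1 by 1.09 ± 0.24, and none fell.

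At 18 h 2 of 5 proliferation markers fell (background 14.7%), and each of the 5 was lower at every time from 36 h on (32.1%, 34.5%, 39.2% and 35.7%). Their median change was -1.68 at 36 h, then -2.75, -3.40 and, at 96 h, -1.19. At 72 h MKI67 fell by 3.90 ± 0.24, MCM2, a subunit of the replicative helicase, by 3.43 ± 0.18, CCNB1, the mitotic cyclin, by 3.40 ± 0.19 and PCNA, the polymerase clamp, by 2.11 ± 0.12. All 5 rose from 72 h to 96 h (background 17.1%), with a median of 1.80. In bulk RNA, fewer cells in a state and less RNA per cell cannot be told apart, and the part of cycling cells in the course of MTHFD1 was not tested.

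For neighbouring pathways, the shares of all genes called at the successive times were 14.8%, 33.2%, 31.8%, 29.3% and 25.1% higher and 14.7%, 32.1%, 34.5%, 39.2% and 35.7% lower. Of 9 tested genes of the methionine cycle, transsulfuration and glutathione synthesis, 1, 2, 2, 0 and 0 rose and 2, 4, 5, 5 and 4 fell at the successive times. MAT2A, which makes S-adenosylmethionine, fell by 1.48 ± 0.11 and GCLM, a subunit of the first enzyme of glutathione synthesis, by 1.71 ± 0.14 at 36 h. The methionine synthase MTR fell by 0.85 ± 0.13 at 72 h, and the glutathione synthetase GSS rose by 0.67 ± 0.12 at 36 h. Of 8 tested aspartate, glutamate and proline enzymes, 1, 2, 3, 2 and 2 rose and 0, 1, 2, 2 and 1 fell. The ornithine aminotransferase OAT rose by 1.00 ± 0.10 at 72 h and the argininosuccinate lyase ASL by 1.63 ± 0.29 at 96 h. The mitochondrial aspartate aminotransferase GOT2 fell by 0.95 ± 0.10 at 72 h and the glutamate dehydrogenase GLUD1 by 0.53 ± 0.12 at 53 h.

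Against the same shares of all genes, of 7 tested carriers of serine, glycine and other neutral amino acids 2 rose at each time, SLC38A2 and the cystine carrier SLC7A11, by 1.06 ± 0.08 and 0.93 ± 0.18 at 53 h. At 96 h 2 fell, among them SLC3A2, by 1.15 ± 0.45 (limma adjusted p = 0.0415), and SLC38A1 changed by -0.65 ± 0.33 (0.101). Of 7 regulators that have been linked to serine synthesis, 0, 4, 3, 3 and 2 rose and 1, 1, 1, 2 and 2 fell. MYC fell by 1.38 ± 0.09 at 18 h and 1.55 ± 0.09 at 36 h, changed by -0.10 ± 0.10 at 53 h (limma adjusted p = 0.376), and was again lower at 72 h and 96 h. NFE2L2 rose by 0.84 ± 0.11 at 72 h, while the histone methyltransferase EHMT2 fell by 0.77 ± 0.11. MYCN read 3.15 to 3.48 on the 4 arrays at 0 h, below the filter value of 4, and 4.55 and 5.47 at 72 h, so that it passed the filter only through later times and no fold is given. KDM4C read 2.70 to 4.01 at 0 h, below 4 on 3 of the 4 arrays, and so also needed later times to pass. The counts of regulators that rose are therefore not free of the filter. Without replicate 1 of 36 h, where 17.3%, 33.0%, 33.1%, 30.4% and 26.5% of all genes were called higher and 16.2%, 31.4%, 35.6%, 40.2% and 36.9% lower at the successive times, 5 of the 7 carriers rose and 0 fell at 36 h, and 3, 3, 4 and 5 fell at 18 h, 53 h, 72 h and 96 h. Of the 8 aspartate, glutamate and proline enzymes 3, 5, 4, 5 and 4 then rose and 0, 1, 3, 3 and 2 fell, and of the 9 methionine and glutathione genes 2 fell at 36 h.

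Over the 16 arrays the enzymes that are alike in time were also alike array by array, as a description of arrays that share their groups and the outlying array. Pearson's r was 0.92 for PHGDH with PSPH, 0.91 for ASNS with CTH, 0.88 for ASNS with SHMT2, 0.87 for PHGDH with PSAT1 and 0.87 for PSAT1 with MTHFD2. MTHFD1 stood apart, at -0.57 with SHMT2, -0.42 with ASNS, -0.41 with CTH and 0.16 with PHGDH. The 3 tested genes outside the group most like ASNS were DDIT3 (r = 0.98), TRIB3 (0.97) and PCK2 (0.94), and those most like MTHFD2 were CEBPG (0.93), TARS1 (0.92) and XPOT (0.91). Those most like PHGDH were HAX1 (0.97), NFYC (0.95) and GOT1 (0.94). Those most like MTHFD1 were SMC2, KNTC1 and POLE, each at 0.99.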

How the data were processed

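RNA of 16 samples was measured on 16 arrays. The deposited values are log2 expression per probe set, which the authors computed with GCRMA (per the submitters' processing notes). This method corrects background by probe sequence and compresses dim values. Its version, its settings or joint processing of all arrays is not given in the sources used here. The log2 scale was inferred from the range of values. Symbols came from the platform annotation.

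Each gene was represented by its brightest probe set on average. Genes had to reach log2 4 on 2 or more arrays, which 7304 did. The linear models of limma (version 3.58.1, in R 4.3.3, with version 1.17.8 of data.table) gave each time its own mean over all arrays, left 10 residual degrees of freedom, and used moderated tests with a mean-dependent trend. P-values were adjusted by Benjamini-Hochberg over all genes of a comparison, with a threshold of 0.05. A fold is 2 to the power of the size of the log2 change. Probe sets tested one by one were adjusted over 10947 probe sets. The within-array differences were tested by two-sided exact permutation. The fit was tested on simulated data. Python 3.11.15 with pandas 2.3.3 and matplotlib 3.10.9 drew the plots. Precision is limited by the number of arrays.

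The members and lists were chosen with earlier results of these data known. Named genes were the 9 enzymes, up to 4 genes per list with the smallest adjusted p of the F test, ATF4, DDIT3, TRIB3, CHAC1 and MYC whatever their p, FLI1, and the 3 genes most correlated with each of ASNS, PHGDH, MTHFD1 and MTHFD2. Arrays were grouped by the time in the labels. Replicate numbers, which the labels tie to no shared culture, were not used in the main fit, whose p-values take no account of any pairing. Deviations from the group means correlated at 0.21 to 0.63 over the 9 same-numbered pairs of 0 h, 18 h and 36 h. Replicates 2 and 3 were not told apart by this. Replicate 3 of 0 h correlated at 0.55 with replicate 2 of 18 h and at 0.51 with replicate 3 of 18 h. With later times the correlations ran from -0.21 to 0.25. Alternatives were a replicate block, no filter, other choices of probe set, 2 further normalizations, array weights, no trend, replicates 2 and 3 averaged, and each array left out.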

Additional observations from a re-analysis of the deposited data

Results flagged for a closer look

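At 0 h ASNS had 1 array apart from the other 3. Replicate 1 read 9.63 against 10.07 to 10.16, so that its gap took 0.8293 of the range of the 4 arrays, just past the 95% critical value of Dixon's test for 4 values. It was the 1 such case among 15 groups of 4 arrays looked at, and by chance about 5% of groups pass this value.

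A probe set that the annotation assigns to MZT2A, MZT2B and PHGDH together, and that the comparisons do not use, was 0.1142 higher at 18 h and 0.1511 higher at 36 h than at 0 h on the log2 scale. Its mean was 11.31 at 0 h, then 11.24 at 53 h, 10.99 at 72 h and 11.20 at 96 h. All arrays of these 3 later times lay below those of 0 h. Which of the 3 genes it reads cannot be told apart.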

How the results depend on the processing

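Array weights and leaving out replicate 1 of 36 h changed most, and both also changed the share of all genes called, given in parentheses here. The weights were 1.77 to 3.09 for replicates 2 and 3 of 0 h, 18 h and 36 h, which may be 1 RNA. For replicate 1 of 36 h the weight was 0.23, so weighting is not independent of leaving that array out. With array weights, in place of the reported counts, 3 enzymes rose at 18 h (25.4%), 7 at 36 h (39.6%) and 1 at 72 h (33.7%), 4 fell at 72 h (43.7%), 5 rose from 18 h to 36 h (33.4%), 3 fell at the next step (13.8%) and 3 at that after it (16.4%), and 1 fell from 72 h to 96 h (10.3%). Omitting replicate 1 of 36 h with replicates 2 and 3 averaged, chosen after the data were seen, gave 4, 7, 4 and 3 higher at 18 h, 36 h, 53 h and 72 h (8.70%, 24.6%, 30.2% and 27.9%), 4 lower at 72 h (37.1%), 4 higher from 18 h to 36 h (9.79%), and 2, 7 and 5 lower at the 3 later steps (1.80%, 8.03% and 8.54%). With _x_at and _s_at probe sets left out, 1 rose at 36 h (32.5%) and 1 at 53 h (31.9%), and 4 passed over the time course (83.0%), but ASNS and PSAT1 have no other probe sets and dropped out, so that 6 enzymes were tested. With replicates 2 and 3 averaged, 1 rose at 36 h (27.7%), 2 fell at 96 h (31.9%), and 0 fell at each of the steps to 53 h (2.62%) and 72 h (7.00%). Without a filter those steps had 0 lower too, and SHMT1, changed by -0.03, passed at 72 h and 96 h. Without the trend 0 fell from 36 h to 53 h.

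Leaving out each array in turn gave 1 to 5 higher at 18 h (9.15% to 17.3% of all genes), 1 to 7 at 36 h (30.2% to 33.9%), 1 to 4 at 53 h (25.3% to 33.1%) and 0 to 3 at 72 h (24.4% to 30.4%), and 1 to 4 lower at 72 h (34.1% to 40.2%) and 2 to 6 at 96 h (29.9% to 36.9%). From 18 h to 36 h it gave 0 to 5 higher (15.7% to 22.5%), at the later steps 0 to 7, 0 to 7 and 0 to 5 lower (1.84% to 9.58%, 3.51% to 13.3% and 4.96% to 11.9%), and over the time course 4 to 8. MTHFD2 less MTHFD1 ranged from 0.28 to 0.40, 1.15 to 2.50, 2.28 to 2.62, 2.16 to 2.33 and 0.19 to 0.31 against 0 h.

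Of 72 changes of single enzymes, 19 had another sign in 1 or more alternatives. For 13 of these it was called on neither side, as for PSAT1 at 53 h, which changed by 0.17 and by -0.23 without replicate 2 of 53 h. For 6 it was called on 1 side, with array weights, without replicate 1 of 36 h or with the added alternative. From 18 h to 36 h PHGDH changed by 0.44 with weights, and over the fits with 1 array left out by -0.31 to 0.53, the highest without that array. MTHFD2 changed by 0.56 with weights, -0.56 to 0.65 over the same fits and 0.66 with the added alternative, and PSAT1 at 36 h by 0.74, -0.72 to 0.85 and 0.85. From 36 h to 53 h PSAT1 changed by -0.68 to 0.89, MTHFD2 by -0.47 to 0.75 and ASNS by -0.96 to 0.59, the lowest without that array.

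With the replicate block, 3 rose at 53 h (SHMT2 gained), 3 fell at 96 h (PHGDH lost) and 5 passed over the time course, and it changed no other call of an enzyme. The SHMT2 less SHMT1 comparison was not run, and groups of 2 arrays and dim values limit what could be called.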

Other observations

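A probe set annotated to both MIR6778 and SHMT1, and so outside the rule for the enzymes, read 6.41 ± 0.16 at 0 h (SD, n = 4) and 6.07 ± 0.37 at 18 h (n = 3) on the log2 scale. It read 4.52 ± 0.24 at 36 h (n = 3), 4.71 at 53 h, 4.46 at 72 h and 5.86 at 96 h (means of 2 arrays). All 9 arrays from 36 h on lay below those of 0 h, and those of 96 h lay above those of 36 h to 72 h, as for MTHFD1. Replicate 1 of 36 h, at 4.61, lay between the other 2 arrays, at 4.26 and 4.71.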
